A study of Mus musculus with 6 samples.

Results

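The transcripts described here encode the linker histone of the oocyte (H1foo), the replacement linker histone H1.0 (H1f0), the replacement core histones H2A.Z (H2afz), H2A.X (H2afx), macroH2A (H2afy) and H3.3 (H3f3a and H3f3b), and 2 histone chaperones (Npm2 and Hira). They were chosen by gene symbol from the deposited expression table, and 9 of 9 were found among 25899 symbols, each in a single row. The libraries came from oocytes of aged female (AF) mice, 3 of non-polysomal RNA (NP, free or bound to single ribosomes) and 3 of polysomal RNA (P, bound to several ribosomes), numbered 1 to 3 in each fraction. The labels give the mice as CD1 females of 58 weeks, while the methods of the study give the strain as ICR and the age in months. Every library shared the same history of a hormone injection of the females, 200 denuded oocytes, 180 min of culture without the meiotic inhibitor IBMX until nuclear envelope breakdown (NEBD), and 10 min of cycloheximide, an elongation inhibitor that freezes ribosomes in place. The study calls its samples individual replicates of pooled oocytes. It split the RNA of every sample into an NP and a P part, so both fractions came from the same 3 oocyte samples. No source used here says which NP and P libraries belong together. Nor does any say whether each sample came from other females, so a p-value measures the spread between these libraries. Libraries of young females (YF) were not analysed here, so no value below concerns ageing.

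DNA of a nucleus is wound around core histones, and a linker histone binds where the DNA enters and leaves each nucleosome. Most histone is made from replication-dependent genes, whose mRNAs carry no poly(A) tail and end in a stem-loop instead, whereas replacement variants are made outside S phase from polyadenylated mRNAs. The growing oocyte stores both kinds of message and falls silent in transcription once fully grown, so histones made afterwards, for the egg and for the sperm genome after fertilisation, come from stored mRNA. H1foo replaces somatic linker histones in the oocyte and is loaded on sperm chromatin, Npm2 (nucleoplasmin) stores core histones and remodels sperm chromatin, and Hira deposits H3.3 outside replication.

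Values are FPKM, fragments scaled to exon length and to the mapped reads of a library. They are per length, but how evenly the amplification of the libraries treated different genes was not tested, which limits comparisons between genes. The depth, worked out from how the low values are spaced, ran from 1237789 to 18096725 reads in NP and from 163822 to 1549317 in P, the lowest in P replicate 1. FPKM over all genes summed to between 597261 and 633110 in NP and between 246182 and 393876 in P. The median gene tested had a log2 ratio of P over NP of -1.03, or -0.42 once every library was brought to a common FPKM sum, and 80.1% of genes had a ratio below 0 as deposited. A ratio near -1.03 is therefore that of the typical mRNA in these libraries. Oocyte markers (10 of 10 tested, such as Zp3 and Gdf9) summed to between 9794 and 12192 FPKM in NP and between 4301 and 12839 FPKM in P. Granulosa markers summed to between 11.2 and 131.0 FPKM in NP and between 2.28 and 16.5 FPKM in P, with Foxl2, Amh, Amhr2 and Fshr listed at 0 in every library. Cyp19a1 was at 7.15, 22.5 and 104 FPKM in NP and at 15.4, 0 and 0 FPKM in P, and Nr5a2 reached 26.9 FPKM. The table listed 8 blood markers, of which 7 were at 0 throughout. The part of granulosa RNA in the results below was not tested.

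**Figure D1:**
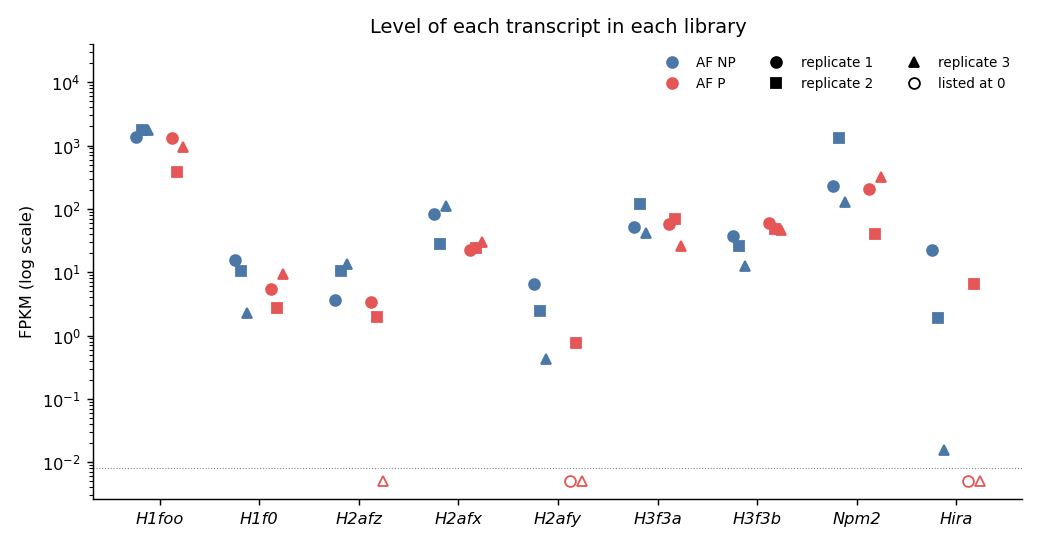
FPKM (log axis) of the 9 transcripts in each of the 3 AF NP (blue) and 3 AF P (red) libraries, with the replicate number as the symbol and open symbols for values listed at 0. H1foo lies between 384 and 1764 FPKM, above the other 8 transcripts in every library, and P libraries of H2afz, H2afy and Hira include values listed at 0.

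H1foo was the most abundant of the 9 transcripts in each of the 6 libraries, at 1382, 1755 and 1764 FPKM in NP replicates 1 to 3 and at 1327, 384 and 947 FPKM in P. It ranked between 26 and 59 among the genes above 0 of its library, within the top 0.84% in each. It made up 75.5%, 54.0% and 85.2% of the summed FPKM of the 9 transcripts in NP and 78.8%, 66.3% and 68.8% in P. Npm2 came next in the mean of both fractions, and in each fraction every H1foo value lay above every Npm2 value. In NP, Npm2 was followed by H2afx, H3f3a and H3f3b. Every Npm2 value there lay above those of H2afx and H3f3a, if narrowly (127 against at most 119.9 FPKM), H2afx and H3f3a overlapped, and H3f3a lay above H3f3b in its lowest value (42.2 against 37.2 FPKM). In P, Npm2 was followed by H3f3b, H3f3a and H2afx, each overlapping its neighbour. H1f0, H2afz, Hira and H2afy made up the low end, each at or below 22.7 FPKM in every library. They overlapped each other except that in P every H1f0 value lay above every H2afy value, and in P the 4 lay below every value of the other 5.

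In the fit across all genes none of the 9 differed between P and NP, against 1.82% of genes called over the whole table (192 of 10578, of which 190 were lower in P and 2 higher). That excess of lower calls depended on scaling, with 1 lower and 2 higher under median-of-ratios scaling, 2 and 2 under quantile normalization and 5 and 2 at a common FPKM sum. The test was limma on log2(FPKM + 1) with Benjamini-Hochberg adjustment over all genes and a threshold of 0.1, and adjusted p of the 9 ran from 0.341 (H1foo) to 0.864 (H1f0). At an unadjusted p under 0.05 there were also 0 of the 9, against 15.8% of all genes. The ratio of P over NP was below 0 for 8 of the 9 and above 0 for H3f3b, and the median of the 9, -1.07, lay next to the -1.03 of all genes. In 2 (H1foo and H2afz) every P value lay below every NP value, a pattern found in 23.2% of all genes, and in 1 (H3f3b) every P value lay above every NP value, a pattern found in 0.633%. The residual SD of the median gene was 1.22 on the log2 scale. In simulated data limma called only 3 of 200 genes that had been given a log2 change of 2 at that noise, so in such a gene the change would mostly have gone undetected. Every simulated gene had the same SD, whereas the residual SD of the 9 ran from 0.56 (H3f3b) to 2.02 (Hira). The simulation therefore does not give the power for each of the 9. Oocytes were pooled, so fewer oocytes with a transcript in a given fraction and fewer copies of it there per oocyte cannot be told apart.

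**Figure D2:**
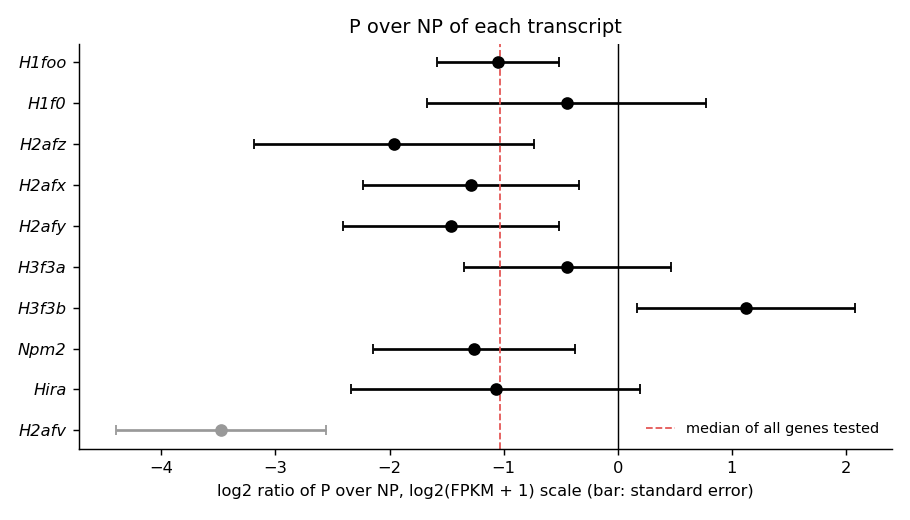
Log2 ratio of P over NP on the log2(FPKM + 1) scale (point) with its standard error from limma (bar) for the 9 transcripts and, in grey, H2afv, with the solid line at 0 and the dashed line at the median of all genes tested (-1.03). H3f3b at 1.13 is the only one of the 9 to the right of 0, and H2afv at -3.48 is the only one past the threshold.

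H1foo (ENSMUSG00000042279.13; chr6:115944938-115950236, plus strand, GRCm38) encodes the linker histone that the oocyte keeps until the early cleavage stages. Mean values were 1634 ± 218 FPKM for NP and 886 ± 474 FPKM for P (SD, n = 3 each), with a log2 ratio of -1.05 (SE 0.54, adjusted p = 0.341, limma). The highest P value, 1327 FPKM, was close to the lowest NP value, 1382 FPKM, and P replicate 2 was the lowest. Without that library the log2 ratio was -0.53, and the remaining P values still lay below every NP value. Scaling took the ratio close to 0, to -0.049 (median-of-ratios), -0.11 (common FPKM sum) and -0.27 (quantile). H1foo had more recovered reads than any other of the 9 in each library, from 261 in P replicate 1 to 38147 in NP replicate 2. Its annotated transcripts share no exact window of 50 bases with another gene.

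The 3′ end of the H1foo mRNA carries a cytoplasmic polyadenylation element (TTTTAT), a motif through which stored oocyte mRNAs are lengthened and translated during maturation, together with a polyadenylation hexamer. Both are shown with 6 flanking bases from the GENCODE M21 transcript, the motif in capitals. The first starts 63 bases and the second 18 bases before the 3′ end.

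H1foo TTTTAT: tgaagcTTTTATtgtcta

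H1foo AATAAA: tttatcAATAAAgacttt

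In the last 150 bases of 1 transcript per gene, TTTTAT was present in 16.8% of 21484 coding genes and AATAAA in 61.7%, counted on the sense strand. Of the 9 transcripts, TTTTAT was found in H1foo and H2afx, and the longer form TTTTAAT (6.01% of coding genes) in H1f0. AATAAA was present in 7 of the 9, and H2afx held only the variant ATTAAA (20.8% of coding genes). In H2afx the TTTTAT and the ATTAAA overlap, and in H1f0 the TTTTAAT overlaps an AATAAA, as the next lines show, with the first motif in capitals.

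H2afx TTTTAT: ggctaaTTTTATtaaagg

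H1f0 TTTTAAT: ctcttaTTTTAATaaaatt

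The H2afx site starts 39 bases and the H1f0 site 125 bases before the end of the annotated transcript. These matches are letters in the annotation, and neither poly(A) length nor binding was measured.

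H1f0 (ENSMUSG00000096210.2; chr15:79028212-79030498, plus strand) encodes the linker histone of differentiated and non-dividing cells. It was at 15.5, 10.4 and 2.23 FPKM in NP and at 5.34, 2.68 and 9.31 FPKM in P, with overlapping fractions (log2 ratio -0.45, SE 1.23, adjusted p = 0.864, limma). The P values rested on 2, 7 and 33 recovered reads. The sign of its ratio depended on scaling, and after median-of-ratios scaling of the libraries it was 0.44. The FPKM of H1foo was between 88.9 and 789 times that of H1f0 over the 6 libraries. By translation of the annotated coding sequences, H1foo has 304 residues, of which 20.7% are lysine or arginine, and H1f0 has 194, of which 32.0% are basic. The proteins were identical at 31.0% of 187 aligned positions.

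The other linker histone genes were dominated by somatic subtypes made from replication-dependent genes. Hist1h1a (H1.1) was at 450, 153 and 584 FPKM in NP and at 123, 44.6 and 96.8 FPKM in P, with every P value below every NP value, a pattern of 23.2% of all genes. Hist1h1e (H1.4) was at 190, 133 and 174 FPKM in NP and at 0, 9.37 and 482 FPKM in P, where a single library carried nearly all of the signal. Hist1h1d (H1.3) was at 23.3, 6.13 and 2.83 FPKM in NP and at 73.5, 0 and 3.89 FPKM in P. Of the 9 other linker histone genes, 5 were tested, and none passed the threshold. Their median log2 ratio was -2.07 beside -1.03 over all genes, which does not show a shift of the family, since H1fx entered the fit through NP alone (0 in all P libraries) and the ratio of Hist1h1e rests on its 0 in P replicate 1, the shallowest library, against similar means in the fractions (166 and 164 FPKM). The testis-specific H1fnt, Hils1 and Hist1h1t were listed at 0 in every library. H1foo made up 66.5%, 84.9% and 69.8% of the summed linker histone FPKM of NP libraries and 86.8%, 86.9% and 61.4% for P libraries, a difference of 4.63 percentage points (exact permutation test, two-sided, p = 0.8).

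H3f3a (ENSMUSG00000060743.12; chr1:180800832-180813943, minus strand) and H3f3b (ENSMUSG00000016559.14; chr11:116021912-116027962, minus strand) encode the same protein, H3.3, the replacement H3 that is deposited outside S phase. Translation of both annotated mRNAs gave the same 136 residues. Their coding sequences of 411 bases differed at 95 positions, of which 81 were at the third base of a codon, and the longest run they shared was 23 bases. The first 150 coding bases are shown to mark where reads of the coding part can be told apart, with the 32 positions that differ in capitals.

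H3f3a: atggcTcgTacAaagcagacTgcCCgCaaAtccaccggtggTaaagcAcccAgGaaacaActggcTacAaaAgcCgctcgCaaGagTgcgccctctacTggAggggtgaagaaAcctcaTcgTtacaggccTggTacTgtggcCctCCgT

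H3f3b: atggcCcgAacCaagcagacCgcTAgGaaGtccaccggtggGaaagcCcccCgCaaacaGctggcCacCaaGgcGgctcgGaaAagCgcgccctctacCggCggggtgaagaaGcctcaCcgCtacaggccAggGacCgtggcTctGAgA

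H3f3b was at 37.2, 25.6 and 12.3 FPKM in NP and at 59.5, 48.3 and 46.4 FPKM in P. It was the only one of the 9 whose P values all lay above its NP values. Mean values were 25.0 ± 12.4 FPKM for NP and 51.4 ± 7.07 FPKM for P (SD, n = 3 each), with a log2 ratio of 1.13 (SE 0.96, adjusted p = 0.525, limma), so the difference did not pass the test across all genes. Relative to the median gene the ratio was 2.16 higher on the log2 scale, and 3.64% of the genes tested had a larger ratio. Recovered reads were 137, 1379 and 445 in NP and 29, 164 and 214 in P. The ratio stayed above 0 in every alternative tried, between 0.71 and 2.17, though some of them, such as other filters, cannot change it.

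H3f3a was at 52.3, 119.9 and 42.2 FPKM in NP and at 57.5, 69.5 and 26.0 FPKM in P, with overlapping fractions (log2 ratio -0.44, SE 0.90, adjusted p = 0.814, limma). Its sign also turned with scaling, to 0.54 after median-of-ratios scaling, while it stayed above the median of all genes in 16 of 16 settings, some of which repeat the ratio and median of the main fit. Of the 50-base windows in its transcripts, 27.1% also occur in another gene, among them processed pseudogenes and the non-coding Gm17275 on the opposite strand, against 6.86% for H3f3b. Whether reads were counted by strand is not given in the sources used here, so reads of H3f3a and of the opposite strand genes Gm17275 and H3f3aos cannot be told apart.

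The 2 mRNAs of H3.3 summed to 89.5, 145.5 and 54.5 FPKM in NP and to 117, 117.8 and 72.4 FPKM in P, with no difference in the mean beyond the spread as deposited (exact permutation test, two-sided, p = 1). The sum was not tested under other scalings. Both mRNAs had ratios above 0, none past the threshold, under median-of-ratios scaling (0.54 for H3f3a and 2.10 for H3f3b), quantile normalization (0.66 and 2.17) and a common FPKM sum (0.48 and 2.03). The share of H3f3b in the sum of the 2 mRNAs as deposited was 41.5%, 17.6% and 22.6% in NP and 50.9%, 41.0% and 64.1% in P. The mean share was 27.3% ± 12.6 in NP and 52.0% ± 11.6 in P (SD, n = 3 each), a difference of 24.7 percentage points. P replicate 2 lay just under NP replicate 1, and the exact permutation test gave p = 0.2 (two-sided), where 3 libraries against 3 cannot go below 0.1. Leaving out each library in turn, the difference was between 18.7 and 31.9 percentage points.

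**Figure D3:**
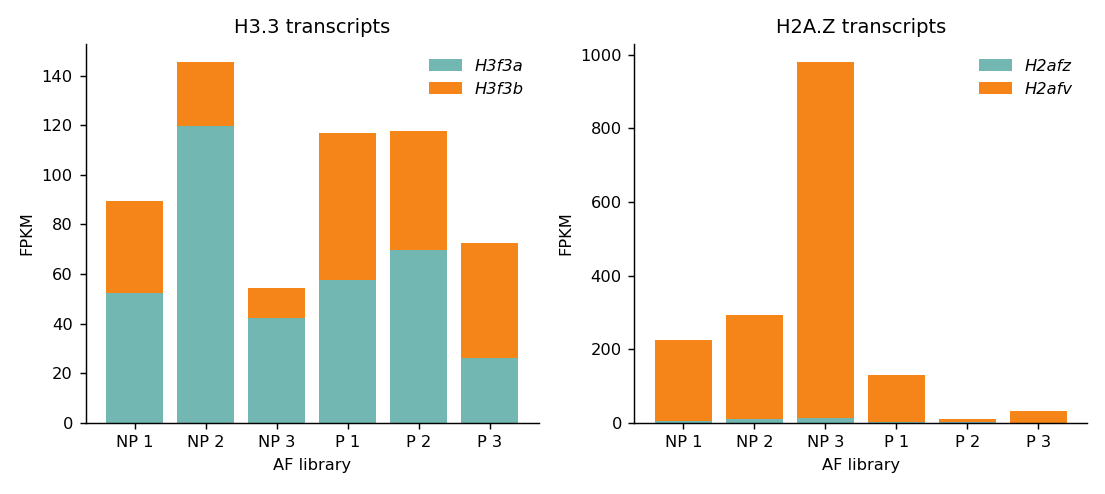
Left, summed FPKM of H3f3a and H3f3b, which encode the same H3.3 protein, in each AF library, and right, summed FPKM of H2afz and H2afv, which encode the forms of H2A.Z. H3f3b takes 17.6% to 41.5% of the H3.3 sum in NP and 41.0% to 64.1% in P, and H2afz takes at most 17.0% of the H2A.Z sum in any library.

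H2afz (ENSMUSG00000037894.13; chr3:137864487-137866922, plus strand) encodes H2A.Z.1, a variant found at promoters and in pericentric chromatin. It was at 3.64, 10.5 and 13.6 FPKM in NP and at 3.44, 1.97 and 0 FPKM in P, so that every P value lay below every NP value (log2 ratio -1.96, SE 1.23, adjusted p = 0.427, limma). The ratio was -1.34 without P replicate 3, -0.92 under quantile normalization and -3.18 with a pseudocount of 0.1. The P values rested on 1, 4 and 0 recovered reads. At the depth of P replicate 1, 3 reads would be worth 10.3 FPKM, which is above NP replicate 1 and close to NP replicate 2, and in P replicate 3 the value at 0 allows up to 1.09 FPKM, counting error only. Of its 50-base windows, 35.4% occur in other annotated genes, mostly a retained intron of Tmcc1 and processed pseudogenes, and Tmcc1 was at 9.58, 10.1 and 0.227 FPKM in NP and at 5.05, 3.02 and 8.19 FPKM in P.

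H2afv, the gene of the other H2A.Z form (H2A.Z.2), carried most of the H2A.Z message. It was at 222.3, 281.5 and 966.5 FPKM in NP and at 126.6, 9.62 and 31.5 FPKM in P, and it was the only gene of the histone and chaperone lists to pass the threshold (log2 ratio -3.48, SE 0.92, adjusted p = 0.0736, limma). The call was lost at a threshold of 0.05 and in 10 of 15 other fits, with adjusted p between 0.0138 and 0.650 (limma). The ratio stayed below 0 in all 15, between -4.41 and -2.50, though some of these fits, such as those with other filters, cannot change it. Each of the 3 NP libraries, left out alone, ended the call, and so did leaving out P replicate 2. The call was also lost under median-of-ratios scaling, quantile normalization and a common FPKM sum. It was lost as well without a filter, without the variance trend and with a pseudocount of 0.1. H2afz took 1.61%, 3.58% and 1.39% of the sum of the H2A.Z mRNAs in NP and 2.64%, 17.0% and 0% in P. The sum itself was 226, 292 and 980 FPKM in NP against 130, 11.6 and 31.5 FPKM in P, which mostly repeats the values of H2afv, and 23.2% of all genes likewise had every P value below every NP value.

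H2afx (ENSMUSG00000049932.3; chr9:44334715-44336071, plus strand) encodes H2A.X, which is phosphorylated around DNA double-strand breaks. It was at 82.8, 28.3 and 109.1 FPKM in NP and at 22.5, 24.5 and 30.0 FPKM in P (log2 ratio -1.29, SE 0.95, adjusted p = 0.483, limma). It shrank to -0.32, -0.22 and -0.38 under median-of-ratios scaling, quantile normalization and a common FPKM sum. The P values were close together, and NP replicate 2 lay among them while NP replicates 1 and 3 lay above. Recovered reads were 139, 696 and 1796 in NP and 5, 38 and 63 in P. H2afx is known for making both a stem-loop and a polyadenylated mRNA, and it was the only one of the 9 whose transcript held the histone stem-loop consensus, against 0.233% of all coding genes and 66.1% of 59 canonical histone genes. The stem-loop starts 47 bases after the stop codon and 838 bases before the annotated 3′ end, and is given here in capitals because it ties this variant to the replication-dependent genes.

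H2afx stem-loop: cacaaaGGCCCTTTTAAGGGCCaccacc

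Of its 50-base windows 9.66% were shared with 43 other genes, canonical H2A genes among them. Of those looked up, Hist1h2ai reached 2.92 FPKM, in NP replicate 2.

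H2afy (ENSMUSG00000015937.15; chr13:56073619-56136361, minus strand) encodes macroH2A1, an H2A with a large additional macro domain that is found on the inactive X chromosome. It was at 6.53, 2.43 and 0.424 FPKM in NP and at 0, 0.772 and 0 FPKM in P (log2 ratio -1.46, SE 0.95, adjusted p = 0.441, limma). The ratio was -2.07 without NP replicate 3, -0.87 without NP replicate 1, -0.38 under quantile normalization and -3.32 with a pseudocount of 0.1. The 6 recovered reads of P replicate 2 were the only ones in P. The values at 0 allow up to 2.69 FPKM in P replicate 1 and 0.284 FPKM in P replicate 3 (3 reads each), so only the latter lies below every NP value. Its paralog H2afy2 (macroH2A2) was at 0.305 FPKM in NP replicate 2 and 2.01 FPKM in P replicate 2 and listed at 0 in the other libraries. The macroH2A1 protein has 372 residues, against 143 for H2A.X and 128 for H2A.Z.1, and over the aligned part it was identical to H2A.X at 62.9% and to H2A.Z.1 at 52.5% of positions. H2A.Z.1 and H2A.X were identical at 63.7%.

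Among the other replacement variants, Cenpa, the H3 of centromeres, was at 16.8, 4.90 and 24.2 FPKM in NP and at 9.76, 14.4 and 0.774 FPKM in P. H2afj was at 9.73, 4.63 and 11.7 FPKM in NP and at 0, 0.959 and 0.353 FPKM in P. The 0 in P replicate 1 stands at the lowest depth (163822 reads), so whether it lies below the NP values cannot be told. Of 11 genes in this list 7 were in the table by these symbols and 4 were tested. All 4 had a ratio below 0, beside 80.1% of all genes. Of the 4, 1 (H2afv) passed the threshold, beside 1.82% of all genes.

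Npm2 (ENSMUSG00000047911.6; chr14:70647302-70653084, minus strand) encodes nucleoplasmin 2, an egg chaperone that stores H2A and H2B and helps to decondense sperm chromatin. It was at 227, 1296 and 127 FPKM in NP and at 208, 40.4 and 318 FPKM in P. The fractions overlapped, and NP replicate 2 alone stood far above the other 5 libraries, which were at or under 318 FPKM. The log2 ratio was -1.26 (SE 0.88, adjusted p = 0.466, limma). It moved with single libraries, to -0.28 without NP replicate 2, -0.38 without P replicate 2 and -1.95 without NP replicate 3, and to -0.26 under median-of-ratios scaling. Recovered reads were 280, 23390 and 1535 in NP and 34, 46 and 491 in P. The ratio of H1foo to Npm2 was therefore uneven, from 1.35 in NP replicate 2 to 13.9 in NP replicate 3. The encoded protein of 207 residues is 20.3% aspartate or glutamate and holds a run of 18 acidic residues, the longest among the proteins of the 9 genes. Its transcripts share no 50-base window with another gene.

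Hira (ENSMUSG00000022702.16; chr16:18877037-18970309, plus strand) encodes the scaffold of the complex that deposits H3.3 outside replication. It was at 22.7, 1.87 and 0.0156 FPKM in NP and at 0, 6.47 and 0 FPKM in P (log2 ratio -1.07, SE 1.27, adjusted p = 0.648, limma). The values spread more among NP libraries than between fractions, since NP replicate 1 held 148 recovered reads and NP replicate 3 held 1. The ratio was 0.19 without NP replicate 1, -2.08 without NP replicate 3, -0.15 under quantile normalization and -2.10 with a pseudocount of 0.1. The values at 0 allow up to 3.47 FPKM in P replicate 1 and 0.367 FPKM in P replicate 3. Of its 50-base windows, 42.0% are shared with Gm28539, an annotated read-through gene on the same strand, so part of its reads may have been counted for that gene.

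**Figure D4:**
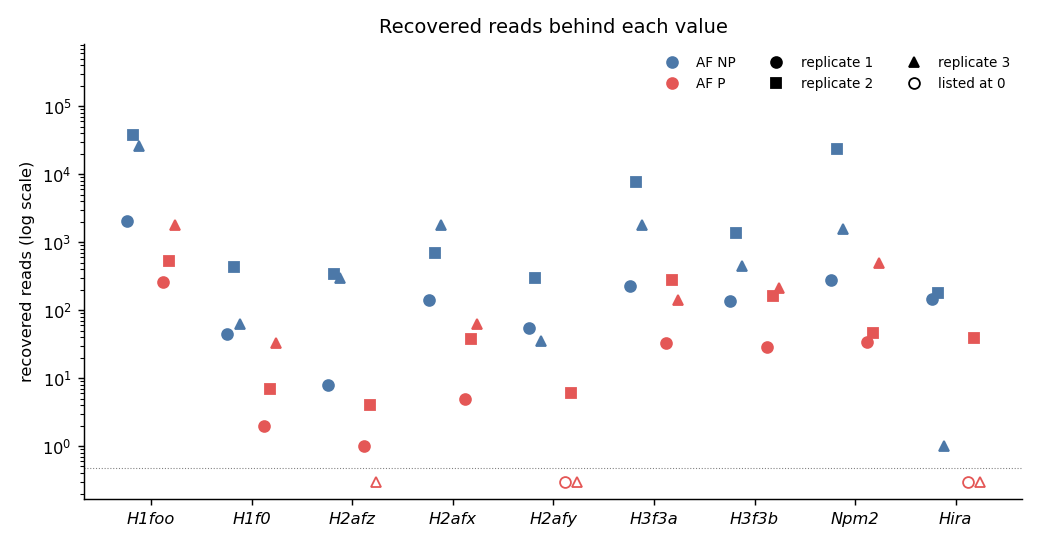
Reads recovered from the FPKM steps (log axis) behind each value of the 9 transcripts in the AF NP (blue) and AF P (red) libraries, open symbols for values listed at 0. H1foo rests on 261 to 38147 reads in every library, whereas H2afz, H2afy and Hira rest on 0 to 39 reads in P.

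The partners of Hira in its complex were chosen for naming after their values had been seen. Ubn1 was at 49.1, 44.9 and 6.45 FPKM in NP and at 75.7, 39.6 and 6.20 FPKM in P. Cabin1 was at 26.5, 29.6 and 21.1 FPKM in NP and at 45.8, 15.4 and 28.2 FPKM in P. Asf1a, which hands H3 and H4 to Hira, was at 5.19, 6.16 and 5.71 FPKM in NP and at 19.6, 14.9 and 6.81 FPKM in P, with every P value above every NP value. Ubn2, the other ubinuclein, was at 0.415, 7.46 and 0.169 FPKM in NP and at 0, 0.123 and 0 FPKM in P, so it was listed at 0 in the same P libraries as Hira, whereas Ubn1, Cabin1 and Asf1a were above 0 there.

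Of 25 other chaperones and remodellers 22 were tested and none passed the threshold, 15 of them with a ratio below 0 and a median of -0.45 beside -1.03 over all genes. Whether these medians differ was not tested. The most abundant was Rbbp7, a histone-binding subunit of several chromatin complexes, at 209, 308 and 74.0 FPKM in NP and at 292, 288 and 139 FPKM in P. Nap1l4, a chaperone of H2A and H2B, was at 42.8, 90.1 and 229 FPKM in NP and at 270, 141 and 14.7 FPKM in P. Asf1b, the second Asf1 paralog, was at 48.0, 61.0 and 83.6 FPKM in NP and at 130.5, 18.4 and 99.7 FPKM in P. Rbbp7, Nap1l4 and Asf1b each overlapped between the fractions. Besides Asf1a, Atrx also had every P value above every NP value, a pattern of 0.633% of all genes. For Atrx the margin was narrow, with 2.41 FPKM in P replicate 1, the shallowest library, against 2.02 FPKM in NP replicate 1. Daxx, Ubn2 and Znhit1 had every P value below every NP value, a pattern of 23.2% of all genes, with Ubn2 and Znhit1 at 0 in P replicate 1.

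Replication-dependent core histone genes make the bulk of the nucleosomal histone in S phase. The table held 60, of which 38 were tested, and none passed the threshold. Their median log2 ratio was -1.70 beside -1.03 over all genes, and it cannot be read as a shift of the family, because genes such as Hist1h3g and Hist1h4b entered the fit through NP alone and were at 0 in all P libraries, which fixes the sign of their ratio. A 0 in P replicate 1 (163822 reads) also leaves room for values as high as many of those in NP. Above 0 in every library of a fraction were 28 genes in NP and 6 in P, and 10 were at 0 throughout. Over the whole table, between 9992 and 13514 genes were above 0 in an NP library and between 6247 and 9557 in a P library. The most abundant were Hist1h2aa, at 377, 254 and 537 FPKM in NP and 610, 98.8 and 655 FPKM in P, and Hist1h2ba, at 457, 232 and 156 FPKM in NP and 800, 22.5 and 73.0 FPKM in P, which encode the H2A and H2B forms known from testis and oocyte. Hist1h2bh followed at 3.71, 33.1 and 264.5 FPKM in NP and 14.0, 0 and 0 FPKM in P. The libraries were primed with random and oligo(dT) primers after rRNA depletion, so mRNAs without a poly(A) tail could be read, and how evenly was not tested.

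Of 10 genes of histone mRNA processing 9 were in the table and 8 were tested, none of them past the threshold, with a median ratio of -0.65. Slbp, the protein that binds the histone stem-loop and is needed for its translation, was at 108, 33.4 and 15.8 FPKM in NP and at 180, 40.4 and 64.9 FPKM in P. Lsm10, of the U7 particle that trims histone mRNA ends, was at 242, 358 and 657 FPKM in NP and at 71.2, 30.7 and 192 FPKM in P. Cpsf3, the endonuclease that cuts them, was at 41.7, 85.0 and 30.1 FPKM in NP and at 21.5, 19.5 and 0 FPKM in P. Lsm10 and Cpsf3 had every P value below every NP value, a pattern of 23.2% of all genes.

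**Figure D5:**
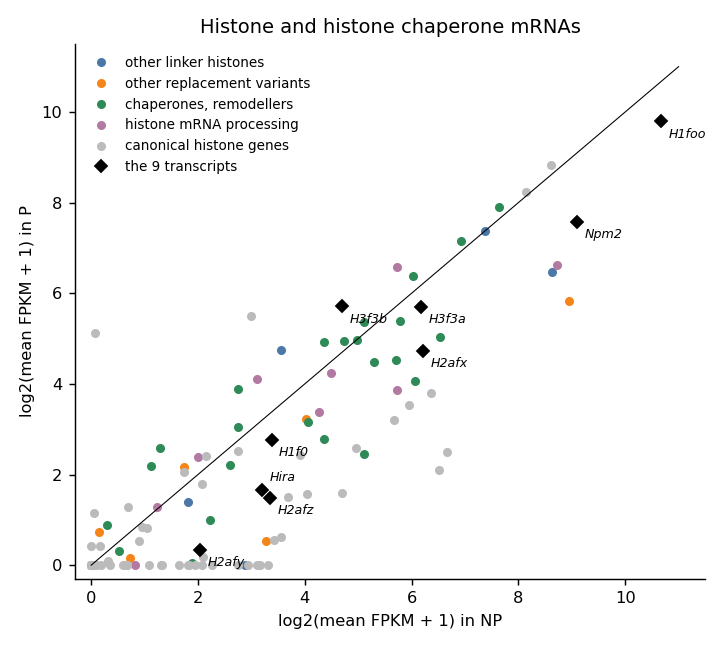
Log2(mean FPKM + 1) over the 3 AF NP libraries (horizontal) and the 3 AF P libraries (vertical) for the 9 transcripts (black diamonds) and the genes of 5 lists (coloured points), with the line of equal values. H1foo lies at the upper end, H3f3b above the line, and most canonical histone genes (grey) below it.

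The genes whose pattern over the 6 libraries was most like that of H1foo were sought among 4831 genes with a mean above 10 FPKM. They were Pga5 (Pearson's r 0.997 on log2(FPKM + 1)), Cdc34 (0.993), Surf4 (0.990), Mrpl54 (0.987) and A1bg (0.979). These r values describe 6 points that share the depth and the FPKM sum of each library. Pga5 was at 79.3, 128.4 and 105.4 FPKM in NP and at 73.3, 4.95 and 33.7 FPKM in P, which, as for H1foo, put P replicate 2 lowest and P replicate 1 just under the NP libraries.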

How the data were processed

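RNA of NP and P gradient fractions of AF oocytes was rRNA-depleted, amplified by REPLI-g whole transcriptome amplification and sequenced from Nextera libraries. Trimming (Trim Galore 0.4.1), alignment to the GRCm38 assembly (HISAT2 2.0.5) and quantification (SeqMonk 1.40.0) were done by the authors, whose deposited values are FPKM for each gene. Neither annotation release nor strand setting is given in the sources. Amplification without molecular identifiers means that reads are not independent molecules, so limits given for values at 0 (3 reads) cover counting error only.

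Of rows with a duplicated symbol (58 symbols) the one with the highest mean was used. Depth was recovered from 4158 genes with 1 annotated transcript and the same interval in GENCODE M21, and between 99.3% and 99.8% of values worth up to 200 reads came out whole within 0.02 reads. Reads summed over exons came to 1.10 to 2.25 times the depth, so whether 1 step is a read or a pair is not given. The values of the 9 genes came out whole within 0.0227 reads, apart from the largest ones, which were not checked. The length of each gene was chosen for giving whole reads, so this is no separate check. For Hira (5277 bases) the shortest such length was taken.

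The fractions were compared by limma (3.58.1, R 4.3.3) with a variance trend and no replicate block, two-sided, after adding 1 to each FPKM and taking log2. This fit and the exact permutation tests took the libraries as independent, although NP and P came from the same oocyte samples. Genes entered the fit where the mean of NP or of P exceeded 1 FPKM. A fold on this scale understates the change of low genes. The procedure was tested on simulated data, and called 200 of 200 genes at a noise SD of 0.3 and 3 of 200 at 1.22 among 10578 genes. Summaries and sequences were made in Python 3.11.15 with Biopython 1.88, and proteins were translated from GENCODE M21 transcripts. Windows shared between genes were exact matches of 50 bases on either strand.

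Genes named beside the 9 were those past the threshold and the 3 with the highest mean in each list, and the 5 most like H1foo. Markers of oocytes, granulosa cells and blood came from marker lists. Cyp19a1, Nr5a2, Foxl2, Amh, Amhr2, Fshr, Asf1a, Atrx, Daxx, Ubn2, Znhit1, Ubn1, Cabin1, H2afy2, H1fx, H1fnt, Hils1, Hist1h3g, Hist1h4b, Hist1h1t, Tmcc1 and Hist1h2ai were named after their values were seen. The 9 genes and the lists were chosen with earlier results of these data known. Alternatives were other pseudocounts, filters and scalings, a constant variance, the replicate block, an adjusted p of 0.05, and leaving out every library in turn. The same alternatives for H2afv and the H3f3b share without each library were chosen after seeing the data.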

Additional observations from a re-analysis of the deposited data

How the results depend on the processing

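The count of the 9 genes past the threshold was 0 in every setting, with a smallest adjusted p of 0.190 (limma). Over 15 alternatives, 125 of 134 log2 ratios of the 9 genes kept their sign and 9 turned. Other filters, a constant variance and the replicate block cannot change a log2 ratio, so the signs kept there were fixed in advance. H1f0 became 0.44, 0.48 and 0.32 and H3f3a 0.54, 0.66 and 0.48 under median-of-ratios scaling, quantile normalization and a common FPKM sum, which moved the median of all genes from -1.03 to -0.37, 0.0027 and -0.42. With 1 library left out, H1f0 ranged from -1.14 (without NP replicate 3) to 0.034 (without NP replicate 1), Hira from -2.08 to 0.19 (the same libraries) and H3f3a from -0.74 (without NP replicate 3) to 0.0034 (without NP replicate 2). Relative to the median of all genes, H3f3b, H3f3a and H1f0 stayed above it in 16 of 16 settings and H2afz stayed below it in 16 of 16. With a constant variance or the replicate block, ratio and median are those of the main fit. H2afy was not tested with a mean above 5 FPKM.

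Over all genes the count of 192 fell to 69 with a pseudocount of 0.1, to 0 without a filter (limma, 1759 at an unadjusted p under 0.05), to 3, 4 and 7 under the scalings in the order above, to 15 without the variance trend and to 65 at an adjusted p of 0.05. Leaving out 1 library gave between 1 (without NP replicate 3) and 331 (without P replicate 3) genes, with 4 without NP replicate 1 and 12 without NP replicate 2. The causes were not tested.

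With the replicate block 668 genes were called, 0 of the 9 among them, and the adjusted p of H2afv was 0.0285. Across genes, departures of an NP library from its fraction mean correlated at 0.063, 0.099 and 0.116 with those of the P library numbered alike. With the rest the correlation was -0.089 to 0.021, so each library correlated best with its own number. NP and P came from the same oocyte samples, but no source states that equal numbers mark the same sample. For that matching these small correlations are only a hint. Depth limits the P values of H1f0, H2afz, H2afy and Hira most.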
